A study of Homo sapiens with 18 samples.

Results

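The hypoxia-inducible genes and the regulators of the hypoxia-inducible factors (HIFs) were followed through 18 RNA-seq libraries of ARPE-19 cells, a human retinal pigment epithelium (RPE) line that arose spontaneously in culture. The set held 38 genes, taken by gene symbol from a list of known HIF subunits, oxygen sensors and HIF target genes, and all 38 were among the 23411 symbols of the count files. It comprised 7 regulators (HIF1A, EPAS1, HIF1AN, VHL, EGLN1, EGLN2 and EGLN3), 8 genes of secreted factors and extracellular enzymes, 2 carbonic anhydrases, 4 mitochondrial genes, 7 genes of chromatin and transcription, and 10 further targets. Of these, 37 were tested in all 11 comparisons. The remaining gene, STC1, a secreted glycoprotein hormone, had at most 1 read in any library and was tested in none.

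HIF is a transcription factor made of an oxygen-labile alpha subunit, encoded by HIF1A or EPAS1, and a stable partner encoded by ARNT. When oxygen is present, prolyl hydroxylases of the EGLN family mark the alpha subunit, the VHL protein recognises the mark and brings in a ubiquitin ligase, and the subunit is degraded, while the asparaginyl hydroxylase encoded by HIF1AN blocks its contact with coactivators. These hydroxylases use oxygen, iron and oxoglutarate, so the pathway is sensitive to redox state as well as to oxygen, and several of its targets (EGLN1, EGLN3) feed back on it. In the RPE the pathway is known above all for the control of VEGFA, the vascular growth factor.

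The cells came in 2 lines. The control line had received a Cas9 vector lacking a guide RNA, and the NRF2 ΔC cells (C1) were 1 clone in which CRISPR/Cas9 editing of the last exon of NFE2L2, the gene of the antioxidant transcription factor NRF2, left a protein without its C-terminal part. Clone and genotype therefore cannot be told apart here. Each line was left untreated, given 0.2 mM H2O2 or given 1 mM N-acetyl-L-cysteine ethyl ester (NACET, a cell-permeable cysteine donor), with 3 libraries in each of the 6 groups. All cultures shared the same medium, but the sources differ on it and on the duration. The study's text and the series design both give an 8 h treatment after 40 h of culture, in 10% serum (the design's opening line has 1%). The sample labels instead give a 2 h treatment after 22 h in 1% serum. No source used here says whether the 3 libraries of a group came from separate cultures, and the p-values then measure only the spread between these libraries.

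The libraries held 16673306 to 25951154 reads on genes. NFE2L2 stood at 102 to 152 CPM (counts per 1000000 reads on genes, with TMM scaling between libraries) over all 18 libraries and was called in no comparison, which does not check an edit that truncates the protein. NQO1, a known NRF2 target looked at after the values were seen, lay at 11.3 to 22.6 CPM in the NRF2 ΔC libraries against at least 170 CPM in every control library. The epithelial keratins KRT8 and KRT18 (at least 260 CPM) and the RPE transcription factors OTX2 and MITF (at least 64.9 CPM) were present in every library. Of the other listed RPE markers, RPE65 and TTR never passed 2 reads, RLBP1 had at most 8 reads and TYR at most 12. SERPINF1, PMEL, BEST1 and LRAT reached at most 1.78, 2.97, 3.54 and 6.86 CPM, and TYRP1 and RDH5 at most 13.2 and 15.5 CPM. The RPE label therefore rests on the keratins, OTX2 and MITF and not on these other markers. The 6 markers of blood, endothelial, photoreceptor and glial cells had at most 3 reads in any library. Replicate 1 of the NRF2 ΔC cells stood apart from replicates 2 and 3 in each treatment: on the third principal component, with 13.7% of the variance, it lay at 20.4 to 26.0 against -5.4 to 8.1. Values without it are given where they change a result.

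HIF binds the letters ACGTG or GCGTG, the core of the hypoxia response element. In the RefSeq promoter windows (GRCh38.p14, from 250 bases before to 50 after each gene start) 26 of the 38 members had an entry. The core ACGTG, searched on both strands and counted by gene over all its windows, was in 16 of these 26 (61.5%) against 24.9% of the 27305 genes of the table. GCGTG was in 13 (50%) against 40.6%, and either core in 22 (84.6%) against 52.4%. The palindrome CACGTG holds ACGTG on both strands at once and was counted for each. Of the members called lower under H2O2 in at least 1 line, 11 of the 15 with a window held ACGTG, against 5 of the 11 other members. The following stretches, each wholly before the gene start, are shown because these genes carry the H2O2 and NACET results below. They are written 5′ to 3′ on the gene's strand with 1 ACGTG core, or CACGT where the core is on the opposite strand, in capitals. The coordinates are GRCh38.p14, whereas the counts were made on hg19. A match in letters is a description and not a measured binding site.
PPFIA4, chr1:203026361-203026389, plus strand: ggcgctctcgtcACGTGcccggacccgag
PDK1, chr2:172556061-172556089, plus strand: cctgctgcccgcCACGTccctcacgtacc
INSIG2, chr2:118088364-118088392, plus strand: ggctcgcaggtcCACGTcttattgacagc
ANKRD37, chr4:185396686-185396714, plus strand: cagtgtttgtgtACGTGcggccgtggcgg
CA9, chr9:35673898-35673926, plus strand: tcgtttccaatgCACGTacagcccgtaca
P4HA1, chr10:73096936-73096964, minus strand: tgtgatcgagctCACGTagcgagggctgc
BNIP3, chr10:131982040-131982068, minus strand: cgcacgcgccgcACGTGccacacgcaccc
ANGPTL4, chr19:8363909-8363937, plus strand: ggaaagaagagtCACGTctcccacggttc
The cores lay 118 (PPFIA4), 17 (PDK1), 143 (ANKRD37), 18 (CA9), 86 (P4HA1), 133 (BNIP3) and 234 (ANGPTL4) bases before the start, and for INSIG2 95 or 174 bases, depending on which of its 2 starts is taken.

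The first question was what H2O2 did to these genes. Many of them fell in both lines, and with all libraries kept none rose past the limits. A gene was called changed at a Benjamini-Hochberg adjusted p under 0.05 in edgeR's quasi-likelihood test together with a log2 change of 0.6 or more in either direction. In control cells 19 of the 37 tested members were called lower and 0 higher. Among all 13691 genes tested in that comparison 3.37% were called lower and 2.96% higher. The median log2 fold change of the members was -0.76 against 0.00 over all genes, and 31 of 37 were negative. In NRF2 ΔC cells 16 members were called lower and 0 higher, against 5.55% lower and 4.26% higher over 13543 genes. Their median was -0.74 against -0.01, and 32 of 37 were negative.

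**Figure D1:**
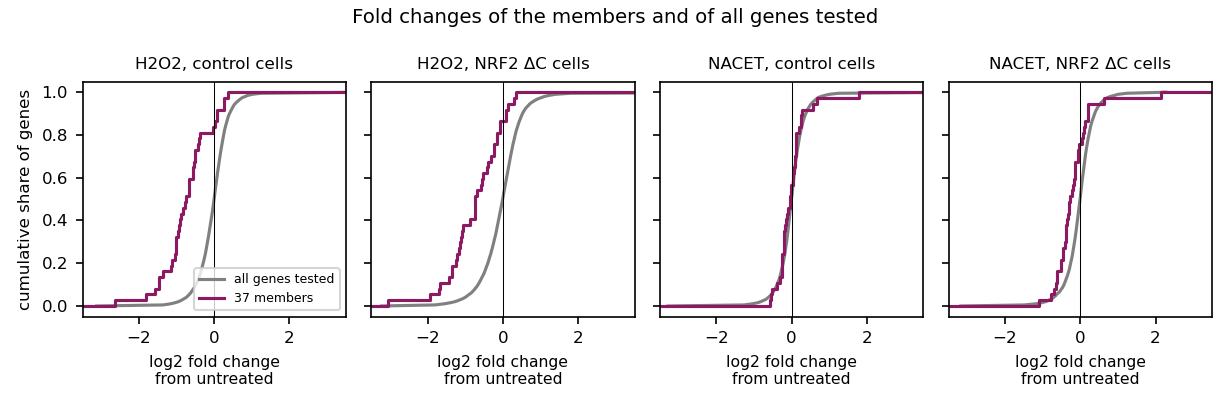
Cumulative share of genes (y axis) against the log2 fold change from untreated cells (x axis), for the 37 tested members (purple) and for all genes tested (grey) in each treatment and line. Under H2O2 the members' curve lies to the left of that of all genes in both lines (medians -0.76 and -0.74), while under NACET it lies close to it in control cells (median -0.04) and slightly to the left in NRF2 ΔC cells (median -0.27).

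Of the 6 role groups the 4 mitochondrial genes had the lowest medians, with log2 values of -1.25 for control and -1.30 for NRF2 ΔC cells. BNIP3 and BNIP3L encode receptors on the outer mitochondrial membrane that recruit the autophagy machinery. BNIP3 was at 154, 189 and 161 CPM in untreated control cells, at 62.3, 66.9 and 51.8 CPM under H2O2, and at 138, 154 and 146 CPM under NACET. NRF2 ΔC values were 148, 128 and 160 CPM untreated, 61.3, 57.6 and 54.1 CPM under H2O2, and 101, 122 and 123 CPM under NACET. Every H2O2 library of BNIP3 lay below every other library of its line. The log2 fold change under H2O2 was -1.48 ± 0.12 (SE, adjusted p = 0.000999) in control and -1.36 ± 0.14 (adjusted p = 0.00168) in NRF2 ΔC cells.

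BNIP3L fell as well. Control libraries held 537, 536 and 460 CPM untreated, 269, 237 and 241 CPM under H2O2, and 455, 414 and 370 CPM under NACET. NRF2 ΔC libraries held 647, 434 and 442 CPM untreated, 270, 225 and 158 CPM under H2O2, and 375, 364 and 269 CPM under NACET. The H2O2 libraries were again below all untreated ones in each line, and replicate 1 was the highest of the untreated NRF2 ΔC libraries. The log2 fold change was -1.03 ± 0.11 (adjusted p = 0.00196) in control and -1.25 ± 0.23 (adjusted p = 0.013) in NRF2 ΔC cells, the latter at an adjusted p of 0.0681 without H2O2 replicate 2.

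PDK1 is a kinase that inactivates pyruvate dehydrogenase. The stretch shown above for it holds 2 cores near the gene start, the second of them in small letters. The level of PDK1 in control cells was 138, 170 and 142 CPM untreated, 55.5, 64.9 and 43.4 CPM under H2O2, and 115, 135 and 126 CPM under NACET. NRF2 ΔC values were 142, 80.2 and 103 CPM untreated, 50.5, 27 and 25.5 CPM under H2O2, and 74.2, 65.6 and 71.5 CPM under NACET. The H2O2 libraries were the lowest in both lines, and the NRF2 ΔC NACET libraries lay below all control NACET libraries. Under H2O2 the log2 fold change was -1.46 ± 0.15 (adjusted p = 0.00202) in control and -1.69 ± 0.29 (adjusted p = 0.0111) in NRF2 ΔC cells, the latter at 0.0657 without H2O2 replicate 2. FAM162A, a mitochondrial membrane protein, was called in control cells (-0.83 ± 0.17, adjusted p = 0.021) and not in NRF2 ΔC cells (-0.58 ± 0.29, adjusted p = 0.212). Its control call was lost without untreated replicate 2 (adjusted p = 0.0584) or H2O2 replicate 1 (0.0633).

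**Figure D2:**
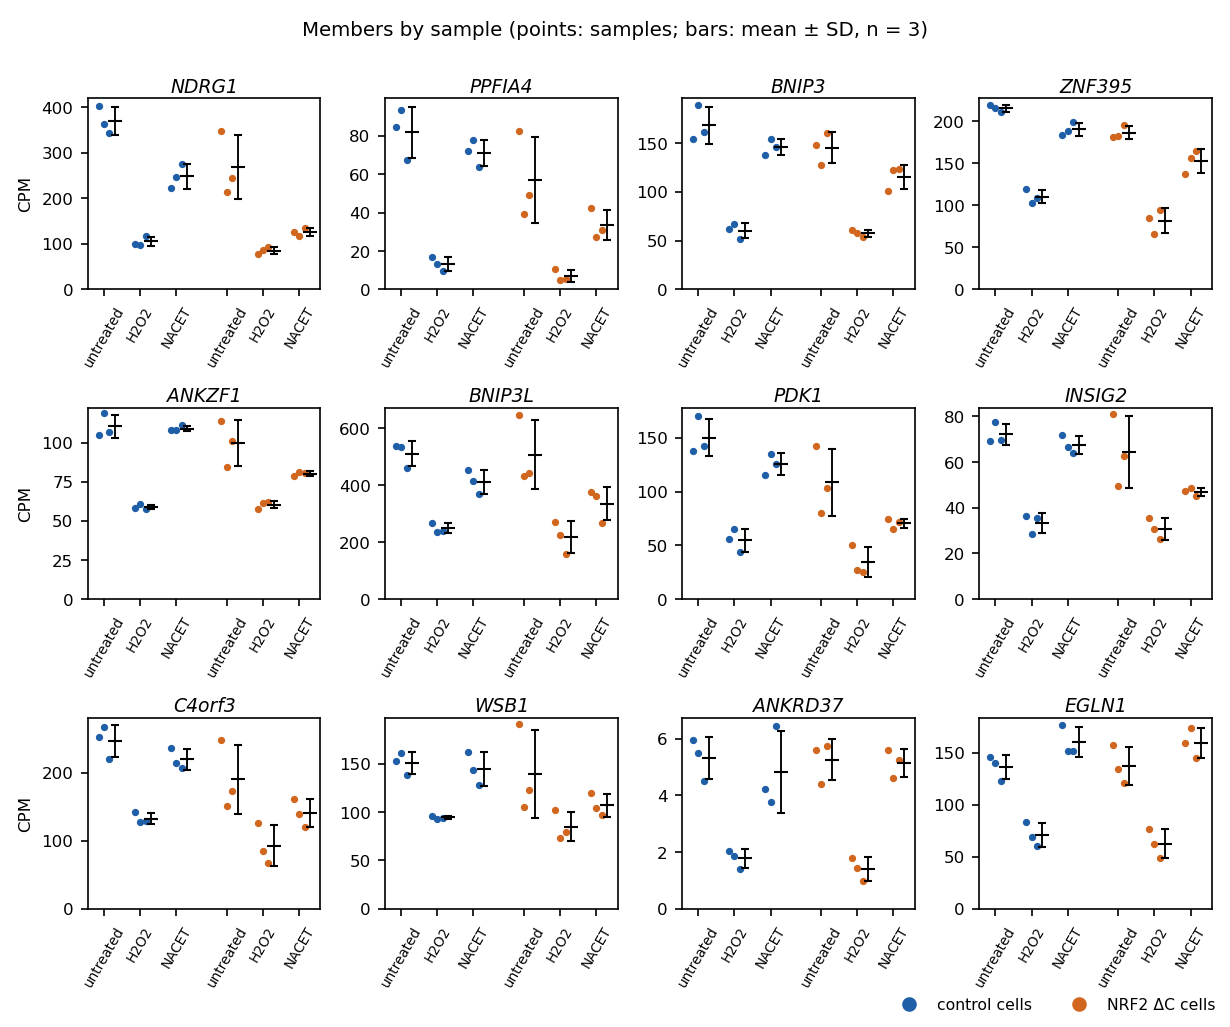
Level of the 12 members with the smallest adjusted p under treatment, in CPM (linear y axis from 0), for every library of the 6 groups (x axis), with control cells in blue and NRF2 ΔC cells in orange. Points are libraries and bars are mean ± SD (n = 3). The 3 H2O2 libraries lie below the 3 untreated libraries of the same line in all 12 panels. The genes were chosen by tests of these same libraries, so this separation is not a separate result.

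Of the 10 further targets 9 were called lower in control cells and 7 in NRF2 ΔC cells. PPFIA4, which encodes a liprin-alpha scaffold protein, had the largest change of the 37 members in both lines. Its control libraries held 84.7, 93.3 and 67.3 CPM untreated, 16.8, 13.1 and 9.51 CPM under H2O2, and 72.1, 77.6 and 63.9 CPM under NACET. The NRF2 ΔC libraries held 82.3, 39.4 and 49.3 CPM untreated, 10.7, 4.92 and 5.46 CPM under H2O2, and 42.5, 27.4 and 31.1 CPM under NACET. H2O2 and untreated libraries did not overlap in either line. Expression was 6.24-fold lower in control cells (log2 fold change -2.64 ± 0.21, adjusted p = 0.000954) and changed by -3.05 ± 0.36 on the log2 scale in NRF2 ΔC cells (adjusted p = 0.00329).

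NDRG1, a stress-responsive gene widely used as a hypoxia marker, was at 403, 362 and 343 CPM in untreated control cells, at 100, 98.3 and 117 CPM under H2O2, and at 222, 246 and 276 CPM under NACET. The corresponding NRF2 ΔC values were 348, 213 and 244 CPM untreated, 76.7, 85.9 and 92.3 CPM under H2O2, and 125, 118 and 135 CPM under NACET. Its 3 treatments did not overlap in either line, with H2O2 lowest and NACET in between. On the log2 scale the H2O2 fold change was -1.81 ± 0.11 (adjusted p = 0.000836) in control and -1.68 ± 0.20 (adjusted p = 0.00302) in NRF2 ΔC cells.

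ANKRD37, an ankyrin repeat protein, was expressed at a low level. Control libraries held 5.96, 5.5 and 4.51 CPM untreated, 2.06, 1.88 and 1.42 CPM under H2O2, and 4.23, 3.76 and 6.46 CPM under NACET. NRF2 ΔC libraries held 5.61, 4.42 and 5.76 CPM untreated, 1.8, 1.44 and 0.982 CPM under H2O2, and 5.6, 4.62 and 5.25 CPM under NACET. The untreated and NACET libraries overlapped in both lines, and the H2O2 libraries lay below them. The change under H2O2, on the log2 scale, was -1.57 ± 0.21 (adjusted p = 0.00475) in control and -1.93 ± 0.27 (adjusted p = 0.00537) in NRF2 ΔC cells.

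INSIG2 encodes a protein of the endoplasmic reticulum that holds back sterol synthesis. In control cells it was at 69.4, 77.4 and 69.8 CPM untreated, 36.3, 28.4 and 35.6 CPM under H2O2, and 72, 66.4 and 64 CPM under NACET. In NRF2 ΔC cells the untreated libraries held 80.9, 49.4 and 62.8 CPM, the H2O2 libraries 35.5, 30.6 and 26.2 CPM, and the NACET libraries 47.5, 48.6 and 45 CPM. The untreated and H2O2 groups did not overlap in either line. This was a log2 fold change of -1.11 ± 0.12 (adjusted p = 0.00217) in control and -1.09 ± 0.20 (adjusted p = 0.0135) in NRF2 ΔC cells. The latter call was lost without H2O2 replicate 2 (adjusted p = 0.0739) or H2O2 replicate 3 (0.052).

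ANKZF1 takes part in the release of stalled peptides from ribosomes. Control libraries held 105, 119 and 107 CPM untreated, 58.4, 60.6 and 57.9 CPM under H2O2, and 108, 108 and 111 CPM under NACET. NRF2 ΔC libraries held 114, 84.2 and 101 CPM untreated, 57.7, 61.6 and 61.8 CPM under H2O2, and 78.7, 81.3 and 80.7 CPM under NACET. The H2O2 libraries of the lines were close to each other and below all others. The log2 fold change was -0.90 ± 0.08 (adjusted p = 0.00136) in control and -0.75 ± 0.15 (adjusted p = 0.0167) in NRF2 ΔC cells, the latter lost without untreated replicate 3 (0.0621) or H2O2 replicate 2 (0.084).

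C4orf3 encodes a small membrane protein that binds the calcium pump of the endoplasmic reticulum. It was at 253, 267 and 221 CPM in untreated control cells, 142, 128 and 129 CPM under H2O2, and 237, 215 and 208 CPM under NACET. For NRF2 ΔC cells the values were 248, 151 and 173 CPM untreated, 126, 84.6 and 67.7 CPM under H2O2, and 162, 140 and 121 CPM under NACET. Groups untreated and under H2O2 did not overlap in either line. The log2 fold change was -0.89 ± 0.10 (adjusted p = 0.00276) in control cells. In NRF2 ΔC cells it was -1.07 ± 0.25 (adjusted p = 0.03), and the call was lost in 5 of the 6 fits that left out 1 library, at adjusted p from 0.056 without untreated replicate 1 to 0.143 without H2O2 replicate 2.

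WSB1, the substrate-binding part of a ubiquitin ligase, was at 153, 161 and 138 CPM in untreated control cells, 96.4, 92.5 and 94.2 CPM under H2O2, and 162, 143 and 128 CPM under NACET. Its NRF2 ΔC values were 191, 105 and 123 CPM untreated, 102, 73.4 and 79.7 CPM under H2O2, and 120, 104 and 96.5 CPM under NACET. The untreated and H2O2 libraries did not overlap in either line. Under H2O2 the log2 fold change was -0.67 ± 0.09 (adjusted p = 0.00459) in control cells, and -0.74 ± 0.23 (adjusted p = 0.0694) in NRF2 ΔC cells, where it was not called.

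Among the remaining further targets, FUT11, a fucosyltransferase, was called in both lines (-1.02 ± 0.22 with adjusted p = 0.0225, and -1.36 ± 0.33 with adjusted p = 0.0322), but 3 of 6 and 5 of 6 fits without 1 library lost the call (adjusted p up to 0.0806 without untreated replicate 2, and up to 0.132 without H2O2 replicate 2). SPAG4, a protein of the nuclear envelope, was called in control cells (-1.36 ± 0.23, adjusted p = 0.00991, and 0.0529 without H2O2 replicate 2) and not in NRF2 ΔC cells (-1.15 ± 0.40, adjusted p = 0.0973). VLDLR, a lipoprotein receptor, was called in neither line, at -0.40 ± 0.21 and -0.16 ± 0.28.

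In the group of chromatin and transcription all 7 log2 fold changes under H2O2 were negative in both lines, and 3 members were called lower in each. ZNF395 encodes a zinc finger transcription factor. Its control libraries held 219, 216 and 211 CPM untreated, 119, 103 and 109 CPM under H2O2, and 184, 188 and 199 CPM under NACET. The NRF2 ΔC libraries held 181, 182 and 195 CPM untreated, 84.6, 65.5 and 94.5 CPM under H2O2, and 137, 156 and 165 CPM under NACET. All 3 treatments were separate in both lines, with the NACET libraries just below the untreated ones. On the log2 scale the H2O2 fold change was -0.96 ± 0.09 (adjusted p = 0.00128) in control and -1.21 ± 0.16 (adjusted p = 0.00458) in NRF2 ΔC cells.

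RORA, a nuclear receptor, was called in both lines (-1.01 ± 0.25, adjusted p = 0.0353, and -1.11 ± 0.30, adjusted p = 0.0468), and each call was lost in 5 of 6 fits without 1 library, at adjusted p up to 0.105 without untreated replicate 2 in control and 0.15 without H2O2 replicate 2 in NRF2 ΔC cells. MXI1, an antagonist of MYC, was called in control cells (-0.68 ± 0.16, adjusted p = 0.0272) with 4 of 6 such fits losing it (up to 0.0948 without H2O2 replicate 2), and stood in NRF2 ΔC cells at -0.54 ± 0.19 (adjusted p = 0.0973). The histone demethylase gene KDM3A showed the converse, called in NRF2 ΔC cells (-0.88 ± 0.21, adjusted p = 0.0295, lost in 5 of 6 fits, up to 0.143 without H2O2 replicate 2) and short of the fold limit in control cells (-0.56 ± 0.14, adjusted p = 0.0339). KDM4B, another histone demethylase gene, stood at -0.51 ± 0.12 and -0.24 ± 0.16, BHLHE40, a repressor of transcription, at -0.77 ± 0.27 and -0.40 ± 0.38, and JMJD6, a hydroxylase of the same fold as the demethylases, at -0.03 ± 0.10 and -0.09 ± 0.14 in control and NRF2 ΔC cells, and none of these 3 was called in any comparison.

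Of the 7 tested secreted factors and extracellular enzymes 1 was called under H2O2 in each line. P4HA1, a subunit of the collagen prolyl hydroxylase, was called lower in control cells (-0.76 ± 0.17, adjusted p = 0.0245), and 4 of 6 fits without 1 library lost the call (up to 0.107 without H2O2 replicate 2). It was not called in the NRF2 ΔC line (-0.74 ± 0.27, adjusted p = 0.106). ADM, the vasodilator peptide adrenomedullin, fell in NRF2 ΔC cells (-0.75 ± 0.20, adjusted p = 0.0482, lost in 5 of 6 fits, up to 0.201 without H2O2 replicate 2) and was short of the fold limit in control cells (-0.56 ± 0.13, adjusted p = 0.0278). VEGFA was at 122 ± 18.8 CPM (SD, n = 3) untreated and 129 ± 15.6 CPM under H2O2 in control cells, and at 142 ± 53.1 and 186 ± 32.5 CPM in NRF2 ΔC cells. Its log2 fold change was 0.08 ± 0.14 (adjusted p = 0.74) and 0.36 ± 0.25 (adjusted p = 0.351), so a change was not detectable against the spread of the libraries. The collagen and elastin cross-linking enzymes LOX and LOXL2 stood at -0.42 ± 0.16 and -0.68 ± 0.19 in control cells and at -0.15 ± 0.25 and -0.55 ± 0.31 in NRF2 ΔC cells, and P4HA2 at -0.50 ± 0.20 and -0.09 ± 0.25, none of them called. ANGPTL4, described below with NACET, stood at -1.16 ± 0.37 (adjusted p = 0.0708) in control and 0.08 ± 0.37 (adjusted p = 0.9) in NRF2 ΔC cells.

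Of the membrane carbonic anhydrases, which adjust pH at the cell surface, CA9 was at 248, 287 and 199 CPM in untreated control cells and at 119, 145 and 97.3 CPM under H2O2. NRF2 ΔC values were 401, 180 and 269 CPM untreated and 312, 132 and 208 CPM under H2O2. The groups were separate in control cells and overlapped in NRF2 ΔC cells. Between same-numbered libraries the NRF2 ΔC values differed by -0.44 to -0.36 on the scale of log2 CPM plus 1, lower under H2O2 in 3 of 3 pairs. The fitted log2 fold change was -1.02 ± 0.17 (adjusted p = 0.0107) in control and -0.41 ± 0.34 (adjusted p = 0.451) in NRF2 ΔC cells. CA12 was not called in either line (-0.38 ± 0.22 and -0.70 ± 0.26).

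**Figure D3:**
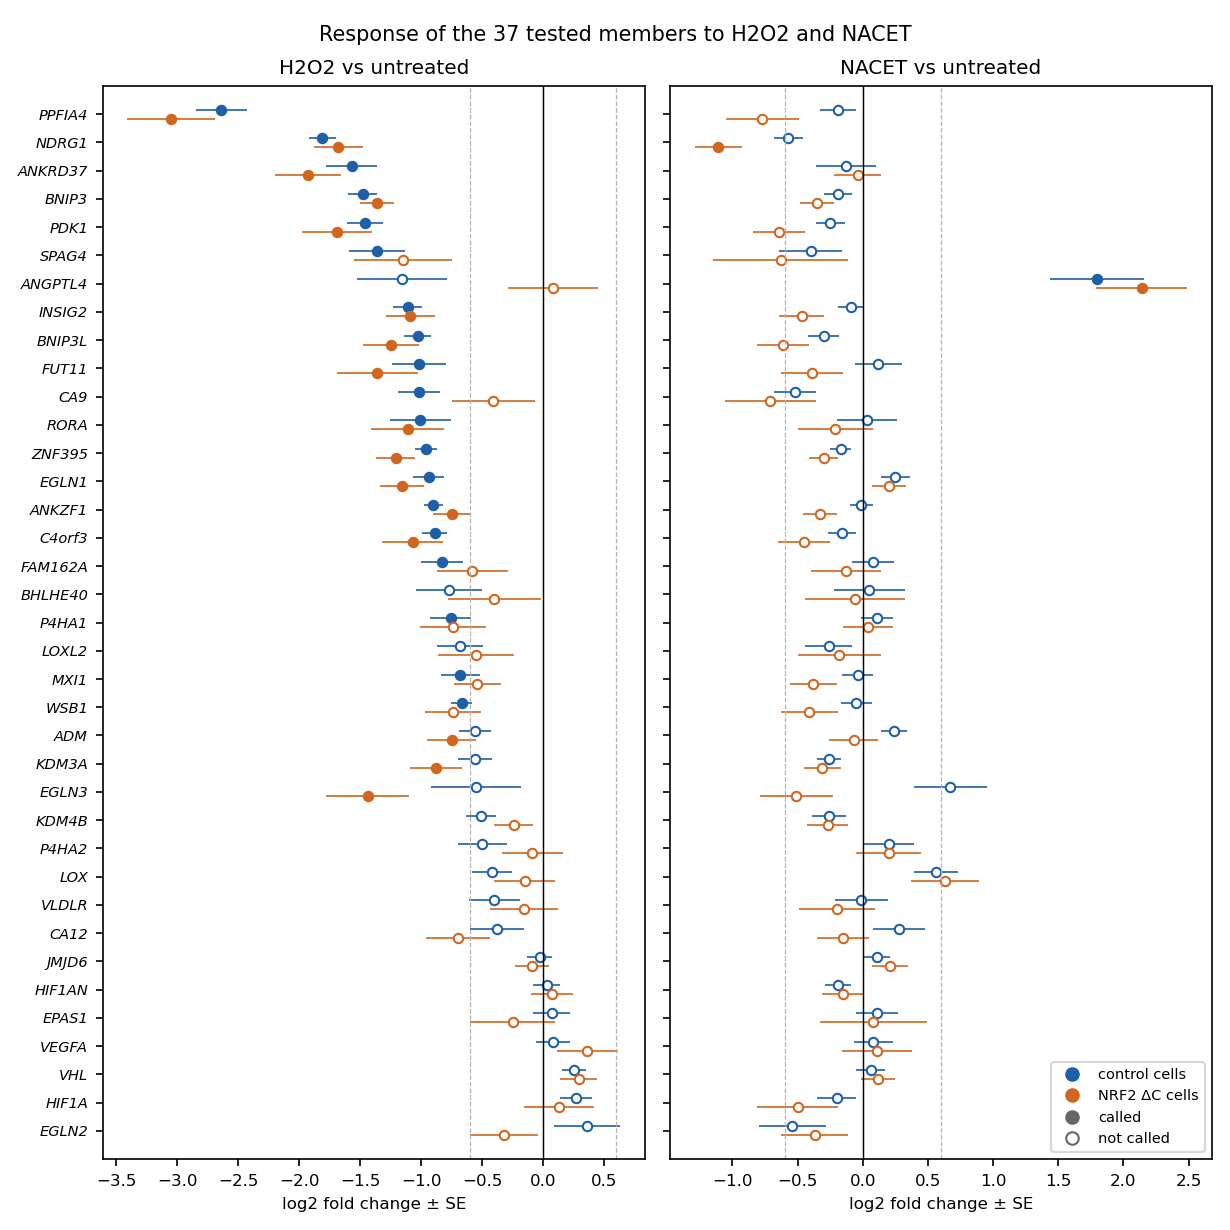
Log2 fold change against untreated cells (x axis, ± SE) of the 37 tested members (rows, ordered by the H2O2 value in control cells) under H2O2 (left) and NACET (right), with control cells in blue and NRF2 ΔC cells in orange. Filled points were called and dashed lines mark 0.6 in size. Under H2O2 19 and 16 points are filled, all to the left of 0, and under NACET only ANGPTL4 in both lines and NDRG1 in NRF2 ΔC cells are.

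Of the 7 regulators 1 was called under H2O2 in control cells and 2 in NRF2 ΔC cells, and these were hydroxylase genes that HIF itself induces. EGLN1, the main prolyl hydroxylase of HIF alpha subunits, was at 146, 140 and 123 CPM in untreated control cells, 83.5, 69.1 and 60.5 CPM under H2O2, and 177, 152 and 152 CPM under NACET. The corresponding NRF2 ΔC values were 157, 134 and 121 CPM untreated, 76.9, 62.3 and 48.7 CPM under H2O2, and 159, 174 and 145 CPM under NACET. The H2O2 libraries were well below the rest in both lines. In log2 terms the change was -0.94 ± 0.13 (adjusted p = 0.00535) in control and -1.16 ± 0.18 (adjusted p = 0.00774) in NRF2 ΔC cells.

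EGLN3, a related hydroxylase, had about 1 CPM. Control libraries held 1.07, 1.54 and 0.775 CPM untreated, 0.766, 1.02 and 0.49 CPM under H2O2, and 1.74, 1.69 and 1.89 CPM under NACET. NRF2 ΔC libraries held 1.71, 1.12 and 1.61 CPM untreated, 0.462, 0.77 and 0.427 CPM under H2O2, and 1, 0.88 and 1.23 CPM under NACET. Untreated and H2O2 libraries were separate in NRF2 ΔC cells only. EGLN3 was called lower under H2O2 there (-1.44 ± 0.34, adjusted p = 0.0308, lost in 5 of 6 fits without 1 library, up to 0.107 without H2O2 replicate 3) and not in control cells (-0.55 ± 0.37, adjusted p = 0.352). EGLN2, the third hydroxylase of the family, also had few reads and was called in no comparison, with 0.36 ± 0.27 (adjusted p = 0.406) in control and -0.32 ± 0.28 (adjusted p = 0.475) in NRF2 ΔC cells.

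HIF1A, the alpha subunit found in most tissues, was at 670, 683 and 570 CPM in untreated control cells, 804, 843 and 662 CPM under H2O2, and 622, 596 and 446 CPM under NACET. For NRF2 ΔC cells the values were 649, 353 and 403 CPM untreated, 756, 399 and 417 CPM under H2O2, and 488, 246 and 268 CPM under NACET. The untreated libraries overlapped with those of each treatment, and replicate 1 of the NRF2 ΔC cells was the highest in each of their treatments. Between same-numbered libraries, however, HIF1A was higher under H2O2 and lower under NACET in every pair of both lines. On the scale of log2 CPM plus 1, the H2O2 differences spanned 0.21 to 0.30 (control pairs) and 0.05 to 0.22 (NRF2 ΔC pairs). Those of NACET spanned -0.35 to -0.11 (control pairs) and -0.59 to -0.41 (NRF2 ΔC pairs). The change under H2O2, on the log2 scale, was 0.27 ± 0.13 (adjusted p = 0.193) in control and 0.13 ± 0.29 (adjusted p = 0.787) in NRF2 ΔC cells, and HIF1A was called in none of the 11 comparisons. EPAS1, the alpha subunit of HIF-2, stood at 0.07 ± 0.15 (adjusted p = 0.794) and -0.25 ± 0.35 (adjusted p = 0.663). HIF1AN was at 0.03 ± 0.11 (adjusted p = 0.898) and 0.07 ± 0.17 (adjusted p = 0.802), and VHL at 0.25 ± 0.10 (adjusted p = 0.12) and 0.29 ± 0.15 (adjusted p = 0.219). RNA levels of the alpha subunits say nothing of the proteins, which were not measured here.

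**Figure D4:**
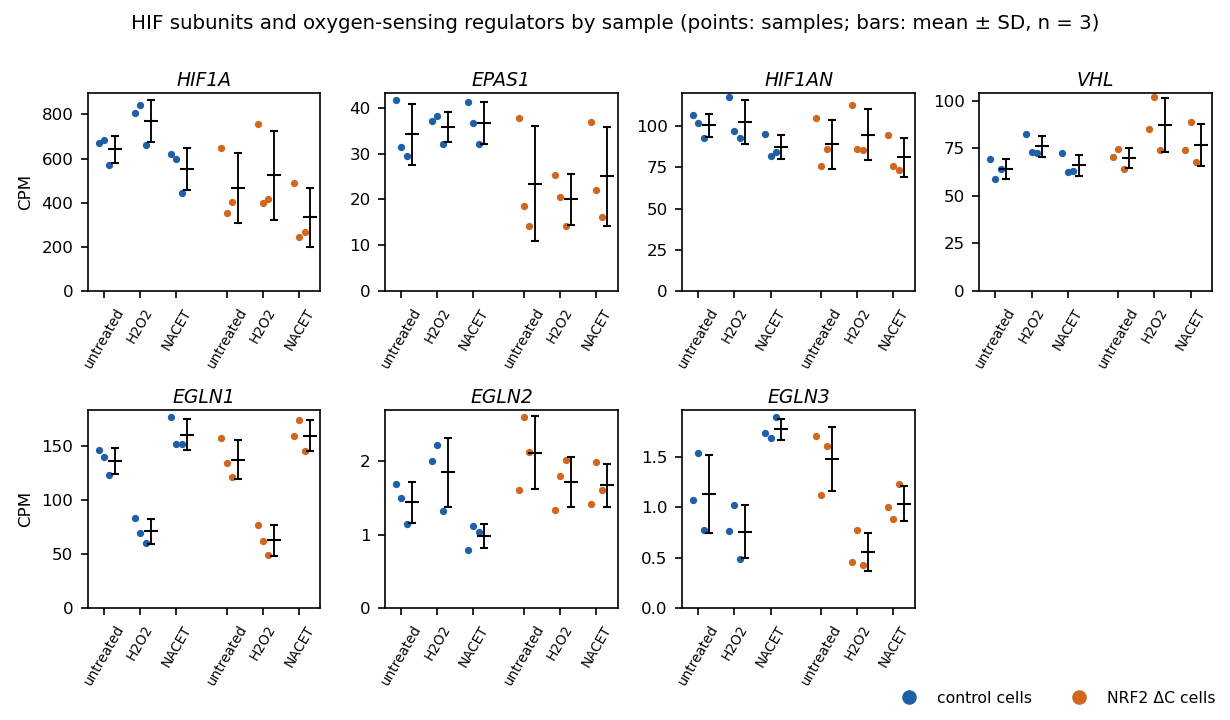
Level of the 7 regulators in CPM (linear y axis from 0) in every library of the 6 groups (x axis), with control cells in blue and NRF2 ΔC cells in orange. Points are libraries and bars are mean ± SD (n = 3). EGLN1 falls under H2O2 in both lines, HIF1A, HIF1AN and VHL were called in none of the 11 comparisons, and HIF1A and EPAS1 are highest in replicate 1 of the NRF2 ΔC cells in each treatment.

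The H2O2 values of the lines, which share no library, were close to each other. Of the members called lower, 13 were called in both lines, which is 68.4% of the control calls and 81.2% of the NRF2 ΔC calls, 6 in control cells alone (CA9, P4HA1, MXI1, FAM162A, WSB1 and SPAG4) and 3 in NRF2 ΔC cells alone (EGLN3, ADM and KDM3A). Across the 37 members, which are not independent replicates, Pearson's r between the lines was 0.85 and Spearman's rho 0.77. Of all genes 3.37% were called lower in control and 5.55% in NRF2 ΔC cells. The matching overlap and correlation over all genes are not given here, so whether this closeness was particular to the members was not tested. The difference between the lines was tested by an interaction term over the 12 libraries. None of the 37 members passed it in edgeR (0.0214% of 13987 genes did), 0 had an unadjusted p under 0.05, and DESeq2 also called 0. The replicate numbers paired the libraries within a line, and with that pairing as a block within each line 4 members were called, against 6.91% of all genes, all with the less negative value in NRF2 ΔC cells: CA9, P4HA2, BHLHE40 and ANGPTL4. The same block added ANGPTL4, BHLHE40 and LOXL2 to the H2O2 calls of control cells (22 lower) and CA12, P4HA1, SPAG4 and WSB1 to those of NRF2 ΔC cells (20 lower). It called 10.2% of all genes in control and 18.7% in NRF2 ΔC cells.

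**Figure D5:**
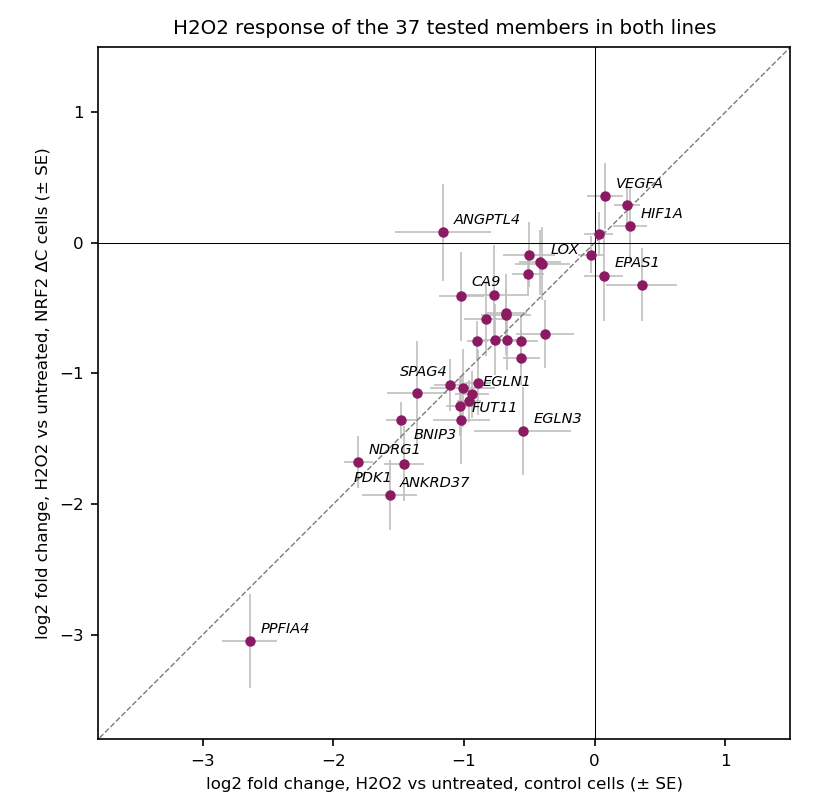
Log2 fold change under H2O2 in NRF2 ΔC cells (y axis, ± SE) against that in control cells (x axis, ± SE) for the 37 tested members, with the line of equal values dashed. The points follow the dashed line (Pearson's r = 0.85), with ANGPTL4 and CA9 above it and EGLN3 below it.

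In control cells 13 of the 19 H2O2 calls held in all 6 fits that left out 1 library. Besides FAM162A and SPAG4, named above, FUT11 was lost without untreated replicate 1 or 2 or H2O2 replicate 2 (adjusted p 0.0534 to 0.0806), MXI1 without replicate 1 or 2 of either group (0.0653 to 0.0948), and P4HA1 without untreated replicate 1 or 2 or H2O2 replicate 2 (up to 0.107) and, at a log2 fold change of -0.59, without H2O2 replicate 3. RORA held only without untreated replicate 3. Of the 16 NRF2 ΔC calls 6 did (EGLN1, BNIP3, NDRG1, ANKRD37, ZNF395 and PPFIA4), and the number called there ranged from 6 without H2O2 replicate 2, 9 without H2O2 replicate 3 or untreated replicate 3 and 10 without untreated replicate 2 up to 21 when H2O2 replicate 1 was left out. The 6 calls lost in 5 of 6 fits (ADM, C4orf3, EGLN3, FUT11, KDM3A and RORA) held only without H2O2 replicate 1. Without untreated replicate 1, 11 members were called, 10 lower and 1 higher, against 7.61% of all genes. With both libraries of replicate 1 left out 19 members were called in NRF2 ΔC cells, all lower, and 17.9% of all genes. The share of all genes called moved with the members' count, and was 2% in the fit that called 6 members and 18.8% in the one that called 21.

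In the fits without a replicate block few of these genes were called under NACET. In control cells 1 of 37 members was called higher and 0 lower, against 1.39% higher and 1.35% lower over 13696 genes, and the median of the members was -0.04 against -0.01. The NRF2 ΔC cells had 1 called higher and 1 called lower, against 0.458% and 0.93% over 13542 genes, with a median of -0.27 against -0.01 and 28 of 37 negative. The member that rose in both lines was ANGPTL4, a secreted inhibitor of lipoprotein lipase that is induced by hypoxia and by lipid-sensing nuclear receptors. It was at 4.22, 7.42 and 2.78 CPM in untreated control cells, 1.83, 2.73 and 1.81 CPM under H2O2, and 17.1, 21.5 and 11.4 CPM under NACET. Its NRF2 ΔC values were 12.2, 4.89 and 4.79 CPM untreated, 8.12, 9.64 and 5.85 CPM under H2O2, and 35.2, 33.2 and 28.9 CPM under NACET. The NACET libraries lay above all others in both lines. The fitted log2 fold change was 1.80 ± 0.36 (adjusted p = 0.0409) in control and 2.14 ± 0.35 (adjusted p = 0.0318) in NRF2 ΔC cells. The control call was lost in 5 of 6 fits without 1 library (adjusted p from 0.0533 without untreated replicate 2 to 0.178 without NACET replicate 2) and the NRF2 ΔC call in 4 of 6 (0.0979 without NACET replicate 3 to 0.167 without NACET replicate 2). In those 4 NRF2 ΔC fits 0 to 2 genes were called in all, and ANGPTL4 kept a log2 fold change of 1.92 to 2.22. The first held only without NACET replicate 3, and the second only without either library of replicate 1.

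NDRG1 fell under NACET in NRF2 ΔC cells (-1.11 ± 0.18, adjusted p = 0.0324, lost in 4 of 6 fits without 1 library, up to 0.198 without NACET replicate 2, and held only without either library of replicate 1). In control cells it was at -0.57 ± 0.11 (adjusted p = 0.0423), just short of the fold limit and so not called. Its levels, given above, were below the untreated ones in all 3 NACET libraries of each line. Among the regulators NACET left EGLN1 at 0.25 ± 0.11 (adjusted p = 0.249) and 0.20 ± 0.13 (adjusted p = 0.475), HIF1A at -0.20 ± 0.15 (adjusted p = 0.516) and -0.50 ± 0.31 (adjusted p = 0.448), and EPAS1 at 0.11 ± 0.16 (adjusted p = 0.752) and 0.08 ± 0.41 (adjusted p = 0.942) in control and NRF2 ΔC cells. HIF1AN stood at -0.19 ± 0.10 (adjusted p = 0.331) and -0.15 ± 0.16 (adjusted p = 0.681), and VHL at 0.06 ± 0.11 (adjusted p = 0.83) and 0.12 ± 0.13 (adjusted p = 0.682). The low-count hydroxylase genes had wide errors, EGLN2 at -0.54 ± 0.26 (adjusted p = 0.285) and -0.37 ± 0.26 (adjusted p = 0.498), and EGLN3 at 0.67 ± 0.28 (adjusted p = 0.223) and -0.51 ± 0.28 (adjusted p = 0.372).

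With the replicate block, which the pairing within a line allows, the number called under NACET was 2 in control cells (ANGPTL4 and EGLN3, both higher), where 7.49% of all genes were then called, and 8 in NRF2 ΔC cells, where 8.82% were. The 2 of 37 in control cells were a smaller share than that of all genes, and the 8 of 37 in NRF2 ΔC cells a larger one. The 6 added in NRF2 ΔC cells were LOX, higher, and BNIP3L, CA9, PDK1, PPFIA4 and SPAG4, lower. Without both replicate 1 libraries of NRF2 ΔC cells 5 were called, 2 higher and 3 lower, against 5.68% of all genes. In the interaction of NACET and line 0 members passed in edgeR, against 0.0643% of 14002 genes, 3 had an unadjusted p under 0.05 (EGLN3, NDRG1 and ANKZF1, named for that p), and DESeq2 called 0. With the block within each line 3 passed, against 0.9% of all genes, CA12, FUT11 and PPFIA4, all with the higher value in control cells.

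The treatments were also set against each other, with the H2O2 libraries shared with the comparison above. Control cells under NACET had 21 members called higher and 0 lower than under H2O2, against 2.25% and 1.43% over 13581 genes, with a median of 0.81 against 0.01. The NRF2 ΔC line had 9 higher and 0 lower, against 5.09% and 3.22% over 13489 genes, with a median of 0.57. ANGPTL4 was highest in control cells (2.97 ± 0.28, adjusted p = 0.00282), followed by PPFIA4 (2.47 ± 0.19, adjusted p = 0.00169), and the values in NRF2 ΔC cells were 2.07 ± 0.20 (adjusted p = 0.00274) and 2.29 ± 0.32 (adjusted p = 0.00767). EGLN1 was higher by 1.20 ± 0.13 (adjusted p = 0.00448) and 1.37 ± 0.17 (adjusted p = 0.00579), ANKRD37 by 1.46 ± 0.26 (adjusted p = 0.0211) and 1.91 ± 0.26 (adjusted p = 0.00707), and BNIP3 by 1.30 ± 0.11 (adjusted p = 0.00201) and 1.02 ± 0.12 (adjusted p = 0.00522).

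PDK1 was higher by 1.22 ± 0.14 (adjusted p = 0.00548) in control and 1.07 ± 0.25 (adjusted p = 0.0376) in NRF2 ΔC cells, INSIG2 by 1.03 ± 0.12 (adjusted p = 0.00504) and 0.64 ± 0.14 (adjusted p = 0.0282), ZNF395 by 0.81 ± 0.09 (adjusted p = 0.00434) and 0.93 ± 0.16 (adjusted p = 0.0135), and ADM by 0.81 ± 0.12 (adjusted p = 0.0113) and 0.70 ± 0.15 (adjusted p = 0.0284). The other 12 were called in control cells alone, although 7 of them (EGLN3, FUT11, RORA, LOX, P4HA1, BNIP3L and C4orf3) were called in NRF2 ΔC cells too with the replicate block. The largest of these were NDRG1 (1.26 ± 0.11, adjusted p = 0.00255) and EGLN3 (1.23 ± 0.28, adjusted p = 0.0466), then FUT11 (1.15 ± 0.23, adjusted p = 0.0303), RORA (1.05 ± 0.24, adjusted p = 0.0449), LOX (0.99 ± 0.18, adjusted p = 0.0205) and SPAG4 (0.98 ± 0.22, adjusted p = 0.0412). Below them came FAM162A (0.93 ± 0.14, adjusted p = 0.0113), ANKZF1 (0.91 ± 0.07, adjusted p = 0.00201), P4HA1 (0.88 ± 0.18, adjusted p = 0.0311), BNIP3L (0.75 ± 0.11, adjusted p = 0.0105), C4orf3 (0.75 ± 0.09, adjusted p = 0.00624) and WSB1 (0.63 ± 0.10, adjusted p = 0.0156). Whether these differ between the lines was not tested in this comparison.

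Left-out libraries moved this contrast. In control cells 10 of the 21 calls held in all 6 fits, and the count fell to 11 without H2O2 replicate 2 or NACET replicate 2 and to 13 without H2O2 replicate 1. The share of all genes called fell as well, from 3.67% with all libraries to 1.27%, 1.2% and 1.8%. EGLN3 was lost in all 6 fits without 1 library (adjusted p 0.0785 to 0.151), and RORA, SPAG4 and WSB1 held only without NACET replicate 3. ADM and BNIP3L were lost without H2O2 replicate 2 or NACET replicate 2 (0.0531 to 0.0689), FAM162A without H2O2 replicate 1 or NACET replicate 2 (0.0503 and 0.0613), LOX without H2O2 replicate 1 or 2 or NACET replicate 2 (0.0621 to 0.101), and ANKRD37 without any 1 of the H2O2 libraries (0.0581 to 0.0899). FUT11 held only without replicate 3 of either group, and P4HA1 only without H2O2 replicate 1 or NACET replicate 3. In NRF2 ΔC cells 5 of the 9 held (EGLN1, BNIP3, ANKRD37, ANGPTL4 and PPFIA4), with 5 called without H2O2 replicate 2, NACET replicate 2 or NACET replicate 3, 6 without NACET replicate 1, 7 without H2O2 replicate 3 and 18 without H2O2 replicate 1, where 11.7% of all genes were called. In the other fits, in the order given, 1.87%, 1.9%, 2.8%, 6.52% and 5.07% of all genes were called, against 8.31% with all libraries. ADM, INSIG2 and PDK1 held only without H2O2 replicate 1, and ZNF395 was lost without H2O2 replicate 2 or NACET replicate 2 or 3 (0.0514 to 0.0703). The replicate block gave 19 calls in NRF2 ΔC cells, 18 higher and 1, HIF1A, lower, and called 15.5% of all genes.

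Between the lines few members differed. In untreated cells 0 of 37 were called, against 0.729% of 13710 genes higher and 3.12% lower in NRF2 ΔC cells, with 2 at an unadjusted p under 0.05 and 0 called by DESeq2. Without untreated NRF2 ΔC replicate 1, 7 were called, all lower, in a fit that called 6.49% of all genes. Under H2O2 1 was higher and 1 lower, against 1.41% and 4.2% of 13580 genes. ANGPTL4 was higher in NRF2 ΔC cells by 1.86 ± 0.26 (adjusted p = 0.00336), with no overlap between the 3 libraries of each line. EPAS1 was at 25.4, 20.6 and 14.3 CPM in NRF2 ΔC against 37.2, 38.2 and 32.1 CPM in control cells (-0.85 ± 0.20, adjusted p = 0.0365), a call lost in 5 of 6 fits without 1 library (up to 0.154 without control replicate 2) and held only without NRF2 ΔC replicate 1. In untreated cells EPAS1 was at 37.7, 18.5 and 14.2 CPM in NRF2 ΔC and 41.8, 31.4 and 29.5 CPM in control cells, and under NACET at 37, 22 and 16.1 CPM against 41.3, 36.8 and 32.2 CPM, with replicate 1 of the NRF2 ΔC cells within or near the control range. Without the NRF2 ΔC H2O2 replicate 1 the count under H2O2 was 8, 1 higher and 7 lower, in a fit that called 17.6% of all genes, so the members' share lay near that of all genes.

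Under NACET 0 members were higher and 4 lower in NRF2 ΔC cells, against 0.895% and 3.86% of 13627 genes, with a median of -0.33 against 0.00. These were PPFIA4 (-1.10 ± 0.18, adjusted p = 0.011), NDRG1 (-1.01 ± 0.11, adjusted p = 0.00191), PDK1 (-0.86 ± 0.10, adjusted p = 0.00265) and C4orf3 (-0.67 ± 0.14, adjusted p = 0.0282). NDRG1 and PDK1 held without any 1 library, PPFIA4 was lost without NACET replicate 2 of either line (adjusted p 0.0596 for control and 0.0572 for NRF2 ΔC), and C4orf3 was lost in 5 of 6 fits (up to 0.14 without NRF2 ΔC replicate 2) and held only without NRF2 ΔC replicate 1. The count was 8 without NRF2 ΔC NACET replicate 1, where 6.66% of all genes were called, and 2 without NRF2 ΔC NACET replicate 2, where 2.3% were. HIF1A was lower in NRF2 ΔC cells by values that were not called, -0.45 ± 0.22 (adjusted p = 0.446) untreated, -0.57 ± 0.24 (adjusted p = 0.185) under H2O2 and -0.76 ± 0.28 (adjusted p = 0.192) under NACET. The other regulators, EGLN1, EGLN2, EGLN3, HIF1AN and VHL, were called in none of the line comparisons, at log2 fold changes between -0.80 (EGLN3 under NACET, adjusted p = 0.104) and 0.72 (EGLN2 under NACET, adjusted p = 0.173).

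Genes of the same pathway outside the set were counted from lists, which were chosen with earlier results of these data known. Of 30 other genes known to rise in hypoxia, all tested, H2O2 lowered 15 and raised 1 in control cells (median -0.61), and lowered 10 and raised 1 in NRF2 ΔC cells (median -0.62). The lowest was PFKFB4, a regulator of glycolytic flux, at -3.13 ± 0.24 (adjusted p = 0.000954) in control and -3.12 ± 0.34 (adjusted p = 0.00248) in NRF2 ΔC cells. The glucose transporter SLC2A1 (-0.94 ± 0.16, adjusted p = 0.0109, and -0.95 ± 0.22, adjusted p = 0.0284) and the lactate dehydrogenase subunit LDHA (-1.18 ± 0.18, adjusted p = 0.00729, and -1.41 ± 0.16, adjusted p = 0.0027) fell in both lines. NACET called 1 of the 30 higher in each line, against 1.39% of all genes in control and 0.458% in NRF2 ΔC cells. It called 0 lower in control cells and 1 in NRF2 ΔC cells, CCNG2, an atypical cyclin (-0.87 ± 0.15, adjusted p = 0.0403), against 1.35% and 0.93%. In NRF2 ΔC against control cells under NACET 6 were lower and 0 higher, against 3.86% and 0.895% of all genes tested.

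The 15 tested genes of other HIF machinery, among them ARNT, the coactivators EP300 and CREBBP, and parts of the VHL ubiquitin ligase, had 0 calls under H2O2 or NACET in either line, with 1 to 3 at an unadjusted p under 0.05 in each comparison and log2 fold changes within -0.57 and 0.60. Of all genes 0.458% to 5.55% were called in each direction of these comparisons, so 0 of 15 lay near that share. Of the RPE markers, 10 were tested under H2O2. BEST1, a chloride channel of the RPE, rose in both lines (1.70 ± 0.26, adjusted p = 0.00751, and 3.76 ± 0.32, adjusted p = 0.00118), RDH5, a retinol dehydrogenase, fell in control cells (-0.76 ± 0.17, adjusted p = 0.0244), and MITF (-0.74 ± 0.19, adjusted p = 0.0388) and LRAT, a retinol acyltransferase (-0.78 ± 0.22, adjusted p = 0.0495), fell in NRF2 ΔC cells. The level of BEST1 was low throughout. Its means untreated and under H2O2 were 0.459 and 1.5 CPM in control cells and 0.24 and 3.32 CPM in NRF2 ΔC cells. The part of these markers in the fall of the hypoxia-inducible genes was not tested, and fewer cells and less RNA per cell cannot be told apart in bulk libraries.

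Over the 11 comparisons 25 of the 38 members were called at least once and 13 never. The latter were HIF1A, HIF1AN, VHL, EGLN2, VEGFA, CA12, KDM4B, P4HA2, LOXL2, BHLHE40, JMJD6, VLDLR and STC1.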

How the data were processed

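Messenger RNA libraries (TruSeq v2) were sequenced single-end on a NextSeq 500. Per the labels and the study's methods, the authors aligned the reads with TopHat 2.1.0 and Bowtie to hg19 and counted them per gene with HTSeq 0.11.2 without strand, after which ribosomal RNA genes were removed. The deposited values were raw counts per gene symbol in 1 file per library. Overlapping genes and antisense partners therefore cannot be told apart. HTSeq's 5 summary lines, which included 15.0% to 17.5% of reads on no feature, were left out of library sizes.

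Groups were taken from the sample labels. For each pair of groups edgeR 4.0.16 (R 4.3.3) was fitted to its 6 libraries (filterByExpr, TMM, quasi-likelihood test, Benjamini-Hochberg adjustment over all genes tested), and the SE was the log2 fold change divided by the root of F. Interactions were fitted over 12 libraries, as the control response minus the NRF2 ΔC response, with no fold limit. CPM used TMM factors over 18 libraries and was not divided by gene length, so levels were compared within a gene only. The design followed the study's lists of pairs of groups. DESeq2 1.42.0, which the study used, was an alternative, as were RLE factors, no filter, 1 CPM in 3 libraries, 1 fit of all libraries, no fold limit, the replicate number as a block and leaving out each library. Leaving out both NRF2 ΔC libraries of replicate 1 was chosen after seeing the data. The fit was tested on simulated data. Replicate libraries differed by more than sampling noise (chi-square per degree of freedom of at least 9.98).

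Deviations of same-numbered libraries from their group means correlated at 0.471 to 0.876 within a line over 11007 genes, above the limit of 0.1, so the numbers paired libraries within a line. Across lines replicate 2 correlated negatively.

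The members, role groups and gene lists were chosen with earlier results of these data known. Values in every library are given for the 12 members with the smallest adjusted p under treatment, and for ANGPTL4, CA9, EGLN3, HIF1A and EPAS1, which were added after the values were seen. Fold changes are given for each called member and the regulators. A gene of the list of other hypoxia-inducible genes entered the counts and is not reported here by name.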

Additional observations from a re-analysis of the deposited data

Results flagged for a closer look

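The comparison of a treatment between the lines, taken as the control response minus the NRF2 ΔC response on the log2 scale, passed for 0 members without a block. Members are listed here because they passed with the replicate number as a block within each line, or because all 3 same-numbered differences had one sign in control cells and the opposite sign in NRF2 ΔC cells. Under NACET the blocked difference was 0.45 ± 0.09 for CA12 (SE, adjusted p = 0.0198), 0.50 ± 0.11 for FUT11 (adjusted p = 0.0406) and 0.56 ± 0.11 for PPFIA4 (adjusted p = 0.0129, edgeR). CA12 rose by 0.18 to 0.45 in the 3 control pairs and fell by 0.09 to 0.17 in the 3 NRF2 ΔC pairs (log2 CPM plus 1), and FUT11 rose by 0.03 to 0.18 and fell by 0.20 to 0.53. EGLN3 rose by 0.08 to 0.71 and fell by 0.18 to 0.43, with a difference of 1.18 ± 0.39 that did not pass (adjusted p = 1) at about 1 CPM.

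Under H2O2 the blocked difference was -0.62 ± 0.09 for CA9 (adjusted p = 0.000509), -0.45 ± 0.11 for P4HA2 (adjusted p = 0.0168), -0.44 ± 0.11 for BHLHE40 (adjusted p = 0.0249) and -1.33 ± 0.34 for ANGPTL4 (adjusted p = 0.0258), each a more negative response in control cells. EGLN2 rose by 0.12 to 0.37 in the control pairs and fell by 0.05 to 0.36 in the NRF2 ΔC pairs, with a difference of 0.67 ± 0.39 that did not pass (adjusted p = 0.919). A total of 126 genes passed the blocked interaction of NACET and 967 that of H2O2, of 14002 and 13987 tested.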

How the results depend on the processing

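The count of members called under H2O2 in control cells stayed within 1.5 times of 19 in every alternative tried (14 to 25 with 1 library left out), with the same direction. Of the 989 alternative values of the 74 named calls, 842 stayed called, 147 no longer passed a limit and 0 changed sign. The counts that moved by more were as follows. With the replicate number as a block, NACET called 2 members in control and 8 in NRF2 ΔC cells, NACET against H2O2 called 19 in NRF2 ΔC cells, and the block within each line called 3 in the interaction of NACET and 4 in that of H2O2. Across lines, where the libraries shared only a number, the block called 1 untreated, 7 under H2O2 and 8 under NACET. Of all genes it called 6.15%, 11.2% and 7.47%. The block lost no call of the main fit. Without a fold limit NACET called 2 in control cells, against 3.67% of all genes. For NACET against H2O2 in NRF2 ΔC cells DESeq2 called 14 and 1 fit of all libraries 15, against 9.74% and 11.3%. For the lines under H2O2 these fits called 4 and 1, against 7.07% and 7.83%. Without both NRF2 ΔC libraries of replicate 1 (chosen after seeing the data), NACET called 5 and NACET against H2O2 16 in NRF2 ΔC cells, against 5.68% and 12.3%. With 1 library left out the counts ran from 0 to 2 for NACET in each line, 6 to 21 for H2O2 in NRF2 ΔC cells, 11 to 23 and 5 to 18 for NACET against H2O2 in control and NRF2 ΔC cells, and 0 to 7, 1 to 8 and 2 to 8 between the lines untreated, under H2O2 and under NACET. The cause of these shifts was not tested. In 1 fit of all libraries CA9 and SPAG4 lost their H2O2 call in control cells. With 3 libraries a group, and about 1 CPM for EGLN2 and EGLN3, the SE limits what these comparisons can show.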
